A study of Mus musculus with 576 samples.

Results

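The comparison described here set single haematopoietic stem cells of the p27 high class against single cells of the p27 negative class, all from control mouse marrow, across all genes. Cells were taken by their class label in the control count table and kept from 50000 gene reads and 1000 detected genes upward, which left 179 of 192 cells: 84 of 96 p27 high cells and 95 of 96 p27 negative cells, out of 576 cells in the series. All of them were sorted by the surface proteins CD150, CD48, cKit and Sca1 (positive, negative, positive and positive), and the labels give them the treatment Ctrl. They differ in the p27 marker class, and the series title speaks of markers of G0, the state of rest from the cycle of division. The sources used here do not give how the marker was read, or the strain, age and number of the mice. Both classes therefore count as 1 sample each, cells are not replicates, and no difference below carries a test or a p-value. The other groups of the series, a p27 low class and 3 classes from marrow after lipopolysaccharide (LPS), enter only as values set beside those of this contrast.

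Haematopoietic stem cells renew all blood lineages, and most of those in adult marrow rest in G0 for long periods. The protein p27, encoded by Cdkn1b, inhibits cyclin-dependent kinases and is controlled largely through its stability, so a protein marker and the transcript need not move together. Cells that leave G0 enlarge, copy their DNA and make histones, tubulin and nuclear pores, while resting stem cells are known for high levels of surface receptors and transcription factors that hold them in place. The account below is about genes other than the mitotic genes and dormancy markers.

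Levels are counts per 1000000 gene reads (CPM), with reads summed over the kept cells of a class. Where a pair of levels is given as one against the other, p27 high comes first. Differences are log2 folds of p27 high over p27 negative after adding 1 CPM, so a value of 1 is a doubling and low genes are understated. Ranges in parentheses after CPM are exact 95% Poisson intervals. They cover the counting of reads only, since the libraries have no molecular identifiers and cells of 1 sample are not independent samples. Numbers of cells with reads of a gene are after thinning each cell to 50000 reads. Kept cells held 52163 to 1020830 gene reads in the p27 high class (median 229696, 21714440 in all) and 63015 to 1942773 in the p27 negative class (median 390369, 41583206 in all). At an equal 50000 reads the median p27 high cell showed 3952 genes and the median p27 negative cell 4848. Spike-in RNA took a median 18.4% of spike-in and gene reads in p27 high cells numbered 1 to 32 in the labels and 4.99% in those numbered 33 to 96, against 12.3% and 2.76% in p27 negative cells. The part of these differences between cell numbers in any result was not tested, and folds within each range of numbers are given for some genes. Of 151 genes named by rule, 4 past 2-fold changed sign in cells numbered 1 to 32 and 75 others moved by at least 0.5 on the log2 scale, and 41 moved by as much in cells numbered 33 to 96. In 1 p27 negative cell 97.9% of gene reads came from mitochondrially encoded genes.

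Gate genes were present in both classes. Kit, the receptor of stem cell factor, had 402 against 337 CPM, Slamf1, the gene of CD150, 62.8 against 52.5 CPM, and Cd48 6.91 against 8.2 CPM, with reads of Cd48 in 2 of 84 p27 high and 6 of 95 p27 negative cells. Ly6a, the gene of Sca-1, had 331 against 49.7 CPM although both classes had been sorted on its product. Cdkn1b itself had 74.6 CPM (71 to 78.3) in p27 high cells and 81.9 CPM (79.1 to 84.7) in p27 negative cells, so the transcript did not separate the classes, whereas Mki67, the gene of the proliferation antigen Ki-67, had 11.6 against 804 CPM. Markers of other cell types were in part absent and in part well expressed. No read fell on Cd79a or Igkc of B cells, Cdh5 of endothelium or Adgre1 of macrophages in either class. Summed lymphoid markers (19 of 38 without a read in each class) ranged from 0 to 984 CPM per p27 high cell and from 0 to 2139.8 CPM per p27 negative cell, and Ighm of B cells had 0.0461 against 8.61 CPM. Summed endothelial and stromal markers (8 and 11 of 29 at 0) ranged from 7.11 to 2130.3 CPM and from 1.72 to 1408 CPM. Summed neutrophil and monocyte markers (8 and 5 of 32 at 0) ranged from 299.8 to 3370.2 CPM and from 14.5 to 5202 CPM. The p27 negative ranges include the 1 cell with 97.9% of gene reads from mitochondrially encoded genes, and its part in their lower ends was not tested. Summed over the cells of a class, the lists had 232 against 325 CPM (lymphoid), 718 against 399 CPM (endothelial and stromal), 1308 against 869 CPM (neutrophil and monocyte) and 1251 against 1473 CPM (mast cell, basophil and eosinophil). Megakaryocyte and platelet markers had 3953 against 5510.2 CPM and erythroid markers 2701 against 4509 CPM, both lower in the summed p27 high cells. Per cell the megakaryocyte and platelet sums had close medians, 3778 against 3900 CPM, and ranged from 1230 to 12375 CPM and from 48.4 to 22786 CPM. The erythroid sums had medians of 2312 against 3773 CPM and ranged from 498 to 9195 CPM and from 19.4 to 28187 CPM. The part of these markers in the results below was not tested.

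Of 11056 genes with a mean of at least 5 CPM over both classes, 1439 (13%) were at least 2-fold higher in p27 high cells and 930 (8.41%) at least 2-fold lower, with a median log2 fold of 0.06 over all of them. The other genes of the 46078 in the table had lower levels and were not compared. At a 4-fold limit the numbers were 372 (3.36%) and 310 (2.8%). By summed CPM, mean CPM per cell and summed CPM without the top cell alike, 934 (8.45%) were at least 2-fold higher and 674 (6.1%) lower. The balance of directions depends on the scale: when levels were expressed per spike-in read instead of per gene read, the median of all genes shifted by -0.43 and the counts became 810 higher and 2108 lower. Within cells numbered 1 to 32 and 33 to 96 the shift was -0.50 and -0.80, larger in each range than over all cells. In cells numbered 33 to 96 the median p27 negative cell had 35.2 gene reads per spike-in read and the median p27 high cell 19.03. Leaving out each gene's top cell in both classes, the counts were 1181 and 1153. Below, folds are relative to gene reads. Only 1 of the 1439 higher genes belonged to the lists of mitosis and DNA replication, against 168 of the 930 lower genes, so 762 lower genes lay outside both lists. Higher genes were carried by fewer cells: the median higher gene was detected in 16.7% of p27 high and 11.6% of p27 negative cells at 50000 reads, while the median lower gene was detected in 10.7% and 29.5%. A single cell gave over 50% of the reads of the higher class for 213 of the higher and 65 of the lower genes. The plot of all genes by level shows both tails.

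**Figure D1:**
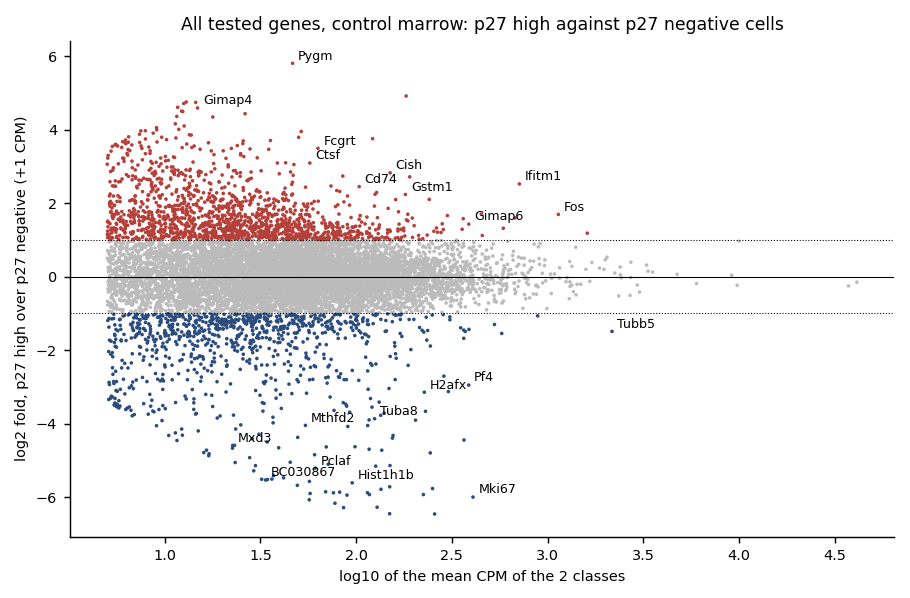
Log2 fold of p27 high over p27 negative control cells (y axis) against the log10 of the mean CPM of both classes (x axis) for 11056 genes, 1 point a gene. Red points are at least 2-fold higher (1439) and blue points at least 2-fold lower (930) in p27 high cells, and dotted lines mark 2-fold.

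Among the lists of genes followed here, that of the GIMAP GTPases had the highest median. These are small GTPases of intracellular membranes, known mainly for the survival of lymphocytes, and their genes lie side by side on mouse chromosome 6. In p27 high cells 5 of 7 tested members were at least 2-fold higher and 0 lower, beside 13% and 8.41% of all genes, with a median log2 fold of 1.56 beside 0.06. Gimap6 (ENSMUSG00000047867, chromosome 6, 48701582 to 48708225 in mm10), the most abundant member in p27 high cells, had 566 CPM (556 to 576) against 209.8 CPM (205 to 214). Per cell it ran from 0 over a median of 519.7 to 2007 CPM in p27 high cells and from 0 over 124 to 1616 CPM in p27 negative cells, so the ranges overlapped while the medians lay apart. Gimap5 (ENSMUSG00000043505, chromosome 6, 48746197 to 48754210) had 147 CPM (142 to 152) against 37.5 CPM (35.7 to 39.4) with reads in 54 of 84 p27 high and 34 of 95 p27 negative cells. Gimap4 and Gimap3 were close to absent from p27 negative cells, at 29.4 against 0.265 CPM and 17.7 against 0.481 CPM, yet they were detected in only 10.7% and 11.9% of p27 high cells. Gimap8 had 21.6 against 6.66 CPM. The other tested members did not reach 2-fold: Gimap1 had 378 against 204 CPM and Gimap9 62.8 against 77.7 CPM. The transcript Gimap1os, which lies on the other strand across the start of Gimap1, had 70.1 against 7.36 CPM. The sources used here do not say whether counting used the strand, so reads of Gimap1os and Gimap1 cannot be told apart with certainty. Just outside the cluster, AI854703 and Zfp775 on one side had log2 folds of -0.48 and 0.14, and Tmem176b and Tmem176a on the other had 0.81 and 0.87, close to the 0.89 of the member Gimap1. At 50000 reads the median cell of both classes showed 3 of the 7 tested members, and 62 of 84 p27 high and 51 of 95 p27 negative cells showed at least 3.

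Genes of antigen presentation by MHC class II, which load peptides onto surface molecules for recognition by helper T cells, had the next highest median, 1.20, with 5 of 8 tested members at least 2-fold higher. That share was 62.5% with 0 lower, where 13% of all genes were higher and 8.41% lower. Cd74, the invariant chain that escorts class II molecules, had 176 CPM (170.3 to 181) against 31.5 CPM (29.8 to 33.2) with reads in 37 of 84 p27 high and 12 of 95 p27 negative cells. In p27 negative cells 1 cell gave 69% of its reads, and without the top cell of each class the log2 fold was 3.83 instead of 2.45. H2-Aa, the alpha chain of the mouse A molecule, had 142 against 46 CPM, with 58.9% of the lower value from 1 cell, with reads in 30 of 84 p27 high and 16 of 95 p27 negative cells. H2-Ab1, its beta chain, had 105 against 46.6 CPM, H2-Eb1 of the E molecule 47.7 against 19.7 CPM, and H2-Oa of the peptide-loading regulator 34.9 against 12.4 CPM. The loading factors H2-DMa and H2-DMb1 had log2 folds of 0.33 and 0.19. Ciita, the transactivator of the class, had 1.01 against 2.53 CPM and was below the level tested. In cells numbered 1 to 32 and 33 to 96 the list's median was 0.44 and 1.20, and H2-Eb1 had -0.14 and 2.87. B cells and macrophages also carry class II molecules. Of their marker genes Cd79a, Igkc and Adgre1 had no read in either class, while Ighm of B cells had 0.0461 against 8.61 CPM and Csf1r of macrophages 0.829 against 1.11 CPM. Of 38 lymphoid markers 19 had reads in each class, and the part of such cells in the result was not tested.

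Class II promoters are known for a conserved block that ends in an inverted CCAAT box. Promoters of RefSeq (GRCm38.p6, 250 bases before the start) were searched for the letters CCAAT on both strands. They were found for 7 of 8 class II genes with an entry (87.5%), against 34.5% of all 27025 promoters. The promoters of H2-Aa and H2-Eb1 are shown because both genes were past 2-fold. Each line runs from base 106 to base 7 before the start, with CCAAT, or ATTGG where it lies on the other strand, in capitals:
H2-Aa, chr17:34287830-34287929, minus strand: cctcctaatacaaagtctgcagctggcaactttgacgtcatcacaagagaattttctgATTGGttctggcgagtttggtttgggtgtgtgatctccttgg
H2-Eb1, chr17:34305761-34305860, plus strand: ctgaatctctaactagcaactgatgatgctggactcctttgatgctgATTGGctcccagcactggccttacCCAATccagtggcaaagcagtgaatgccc
In H2-Aa the letters begin 48 bases before the start, and in H2-Eb1 they begin 59 and 35 bases before it. Among all 1439 higher genes 32.6% of those with an entry held the letters.

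Genes of the NF-kB pathway, a family of transcription factors with their inhibitors and targets, had 11 of 30 tested members at least 2-fold higher and 0 at least 2-fold lower, with a median of 0.72. The higher share was 36.7%, where 13% of all genes were higher and 8.41% lower. Ltb (ENSMUSG00000024399, chromosome 17, 35194439 to 35196320), the membrane cytokine lymphotoxin beta, had 213 CPM (207 to 219) against 42.9 CPM (40.9 to 44.9) with reads in 55 of 84 p27 high and 36 of 95 p27 negative cells. Nfkbiz, an atypical nuclear inhibitor of the family, had 25.7 against 4.35 CPM with reads in 23 of 84 p27 high and 9 of 95 p27 negative cells. The negative regulators Tnip1 (88.2 against 31.3 CPM), Tnip2 (91.7 against 45.2 CPM) and Nfkbie (28.3 against 10.7 CPM) stood on the same side, as did the subunit gene Nfkb2 (35.1 against 15.2 CPM) and the coactivator Bcl3 (32.2 against 15.1 CPM). Icam1, an adhesion receptor and target of the pathway, had 144 against 55.1 CPM. The chemokine genes Ccl3 (12.8 against 1.52 CPM) and Ccl4 (31.9 against 14.3 CPM) were detected in 9.52% and 23.8% of p27 high cells, and Ccl4 had a log2 fold of -0.97 in cells numbered 1 to 32 and 3.03 in the others. Cd74 is also in this list. After LPS the same members had a median of 0.06 between the classes.

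Interferon-response genes leaned to the higher side, with a few the other way. Of 55 tested, 40 lay above 0, 11 were at least 2-fold higher (20%) and 3 lower (5.45%), beside 13% and 8.41% of all genes. The list's median was 0.41, and it was 0.12 in cells numbered 1 to 32 and 0.47 in the others. Ifitm1 (ENSMUSG00000025491, chromosome 7, 140967221 to 140969825), a membrane protein that restricts virus entry and is abundant in stem cells, had 1214 CPM (1199 to 1229) against 211 CPM (207 to 215). Every p27 high cell had reads of it, from 15.9 over a median of 1113 to 7658 CPM, and p27 negative cells ran from 1.11 over 180.02 to 1556 CPM. Irf9, the DNA-binding part of the interferon-activated complex ISGF3, had 168 against 66.9 CPM, and Ifnar1, a chain of the type I interferon receptor, 98 against 44.4 CPM. Others on that side were the RNA sensors Ddx58 (61 against 21.4 CPM) and Dhx58 (63.3 against 29.8 CPM), the immunity-related GTPases Igtp (131 against 55.7 CPM) and Irgm1 (267 against 127 CPM) and the interferon target Ifi44 (131 against 48.6 CPM). The lower members were antiviral genes. Rsad2, the gene of viperin, had 8.43 against 59.4 CPM, with 51.2% of the p27 negative reads from 1 cell. Ifit1 had 7.55 against 28.2 CPM and turned to the higher side, with a log2 fold of 0.87, without the top cell of each class, and to 1.42 in cells numbered 33 to 96. Oas2 had 8.84 against 29.5 CPM.

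Receptors and feedback genes of cytokine signalling were next. Of 39 tested cytokine and growth factor receptor genes 10 were at least 2-fold higher (25.6%) and 3 lower (7.69%), beside 13% and 8.41% of all genes. Their median was 0.59. Il6st, the gp130 subunit shared by receptors of the IL-6 family, had 49.3 against 20.6 CPM with reads in 19 of 84 p27 high and 13 of 95 p27 negative cells. Clcf1 (ENSMUSG00000040663, chromosome 19, 4214238 to 4223490), a cytokine of the same family, had 55.8 against 5.05 CPM, and 78.1% of its p27 negative reads came from 1 cell. Tie1, an orphan receptor of the angiopoietin system, had 203 against 88.8 CPM, Tnfrsf1b, a tumour necrosis factor receptor, 89.2 against 41.8 CPM, and Ifngr2, a chain of the interferon gamma receptor, 41.3 against 17.9 CPM. Fgfr1, a fibroblast growth factor receptor, had 16.9 against 2.04 CPM. On the lower side, Epor, the erythropoietin receptor, had 15.1 against 38.4 CPM, and its log2 fold was 0.94 in cells numbered 1 to 32 against -2.22 in the others. Feedback genes of JAK-STAT signalling had 5 of 30 at least 2-fold higher (16.7%) and 2 lower (6.67%). Both shares were near the 13% and 8.41% of all genes. Cish (ENSMUSG00000032578, chromosome 9, 107296026 to 107302784), an inhibitor induced by STAT5, had 264 CPM (258 to 271) against 36.6 CPM (34.8 to 38.5). Per cell Cish ran from 0 over a median of 199.9 to 1766 CPM in p27 high cells and from 0 over 1.27 to 435 CPM in p27 negative cells. Its relatives Socs1 (17.4 against 5.1 CPM), Socs2 (71.8 against 27.1 CPM) and Socs3 (14.8 against 2.19 CPM) lay on the same side. The STAT5 target Bcl2l1, which protects against apoptosis, went the other way with 21.1 against 62.3 CPM. Il18, a cytokine of the IL-1 family, had 47.3 against 6.9 CPM with reads in 25 of 84 p27 high and 7 of 95 p27 negative cells.

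Signalling by TGF-beta and bone morphogenetic proteins, ligands that act through SMAD proteins and restrain stem cell division, had 7 of 26 tested genes at least 2-fold higher and 0 lower, with a median of 0.58. Over all genes 13% were higher and 8.41% lower, and here the higher genes made up 26.9%. They were the inhibitory SMAD genes Smad6 (16.4 against 1.39 CPM) and Smad7 (10.5 against 2.74 CPM), the BMP effector Smad1 (36.1 against 9.79 CPM), the receptor genes Acvr1 (9.72 against 0.938 CPM) and Acvr2a (17.4 against 3.8 CPM), the repressor Tgif1 (69.3 against 33.2 CPM) and Ltbp3. Ltbp3, a protein that tethers latent TGF-beta, had 84 CPM (80.2 to 88) against 28.9 CPM (27.3 to 30.6), with reads in 23 of 84 p27 high and 20 of 95 p27 negative cells. Smad6 was detected in 11.9% of p27 high and 3.16% of p27 negative cells, and Acvr1 in 4.76% and 4.21%. Acvr1 had a log2 fold of 3.32 in cells numbered 1 to 32 and -0.12 in the others. Of G protein coupled receptors 9 of 30 were at least 2-fold higher (30%, beside 13% of all genes) and 3 lower (10%, near the 8.41% of all genes). Lpar6, a lysophosphatidic acid receptor, had 109.7 against 41.9 CPM, Ptger4, a prostaglandin E2 receptor, 61.2 against 24.9 CPM, and Gpr171 166 against 81.1 CPM. The lower members included the receptors P2ry1 (13.8 against 56.4 CPM) and F2rl2 (1.75 against 37.2 CPM), both known from platelets. Among megakaryocyte and platelet markers 13 of 27 tested were at least 2-fold lower (48.1%, beside 8.41% of all genes) and 0 higher, with a median of -0.85. That median was -0.48 in cells numbered 1 to 32 and -1.28 in the others.

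Of 52 tested lysosomal genes, 12 were at least 2-fold higher (23.1%) and 3 lower (5.77%), beside 13% and 8.41% of all genes. Their median was 0.46, and 6 of the higher ones encode cathepsins, proteases of the lysosome. Ctsf (ENSMUSG00000083282, chromosome 19, 4855130 to 4860918) had 103 CPM (99 to 108) against 11.3 CPM (10.3 to 12.3) with reads in 30 of 84 p27 high and 10 of 95 p27 negative cells. Ctsh (ENSMUSG00000032359, chromosome 9, 90054152 to 90076089) had 52 CPM (49 to 55.1) against 3.78 CPM (3.21 to 4.41) with reads in 21 of 84 p27 high and 3 of 95 p27 negative cells. Both were absent from most cells at this depth, and their maxima were 882 and 513 CPM in p27 high cells. Ctsl had 85.8 against 22.1 CPM, Ctss 32.2 against 7.82 CPM, Ctsc 181 against 79.9 CPM and Ctso 159 against 69.1 CPM. The membrane protein gene Cd63 was more evenly spread, at 249.9 against 105 CPM with reads in 83 of 84 p27 high and 81 of 95 p27 negative cells. On the lower side were the glycosidase and sulfatase genes Gla (0.322 against 19 CPM), Arsa (5.3 against 18.5 CPM) and Arsb (3.04 against 11.2 CPM). By contrast 0 of 16 subunits of the proton pump that acidifies lysosomes were past 2-fold in either direction, with a median of 0.08. Fcgrt (ENSMUSG00000003420, chromosome 7, 45092990 to 45103851), the neonatal Fc receptor that returns antibodies and albumin from endosomes, ranked first among genes over 100 CPM outside the cell cycle and dormancy lists, with 117 CPM (112 to 121) against 9.5 CPM (8.59 to 10.5) and reads in 30 of 84 p27 high and 13 of 95 p27 negative cells. Dmxl2, which helps to assemble the proton pump, had 39 against 3.87 CPM.

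Some metabolic genes were past 2-fold. Pygm, the muscle form of glycogen phosphorylase, was the first of the ranked higher genes at a log2 fold of 5.80, with reads in 23 of 84 p27 high and 2 of 95 p27 negative cells. Of its list, glycogen and glucose entry, 6 of 22 tested were at least 2-fold higher (27.3%) and 2 lower (9.09%), beside 13% and 8.41% of all genes. Phkb, a subunit of phosphorylase kinase, was among the higher ones at 63.1 against 23 CPM. Gstm1 (ENSMUSG00000058135, chromosome 3, 108012255 to 108017973), a glutathione transferase, had 299 CPM (292 to 306) against 62.8 CPM (60.4 to 65.3) with reads in 74 of 84 p27 high and 50 of 95 p27 negative cells, and Gsta4 had 38.8 against 8.1 CPM. The redox genes Nqo1 and Gclc, targets of the factor NRF2, were lower, Nqo1 at 12.6 against 35.6 CPM and Gclc at 15.7 against 36.2 CPM. The antioxidant list had 5 higher (12.5%) and 4 lower (10%) of 40, near the 13% and 8.41% of all genes. Coq8a, a regulator of coenzyme Q synthesis, had 261 against 60.4 CPM with reads in 51 of 84 p27 high and 33 of 95 p27 negative cells. Pdk2, a kinase that restrains pyruvate entry into mitochondria, had 67.7 against 14.8 CPM. Srebf2, the main factor of cholesterol synthesis genes, had 223 against 107 CPM. Of 26 tested genes of that pathway 2 were at least 2-fold higher (7.69%, beside 13% of all genes) and 0 lower.

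In one-carbon metabolism, which supplies units for purines and thymidylate, related enzymes stood on opposite sides. Mthfd2 (ENSMUSG00000005667, chromosome 6, 83305691 to 83325908), the mitochondrial folate enzyme of dividing cells, had 5.3 CPM (4.37 to 6.36) against 103 CPM (100.2 to 106) with reads in 3 of 84 p27 high and 40 of 95 p27 negative cells. In p27 negative cells it ran from 0 over a median of 1.67 to 919 CPM, so it was high in a part of them only. Its partner Mthfd1l had 33.9 against 72.8 CPM. Their relative Mthfd2l, another mitochondrial form, had 35.7 against 12.6 CPM. Of the 19 tested genes of the list 2 were at least 2-fold higher (10.5%) and 3 lower (15.8%), beside 13% and 8.41% of all genes. The Mthfd2 promoter is printed with those of other lower genes further on.

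On the lower side, beyond mitosis and replication genes, histone genes formed a block. Of 22 tested, 17 were at least 2-fold lower in p27 high cells (77.3%, beside 8.41% of all genes) and 0 higher, with a median of -2.50. Hist1h1b (ENSMUSG00000058773, chromosome 13, 21779883 to 21780625), a linker histone, had 2.86 CPM (2.19 to 3.66) against 188 CPM (184 to 192) with reads in 16 of 84 p27 high and 69 of 95 p27 negative cells. Per cell it reached at most 30.1 CPM in p27 high cells, while the median p27 negative cell had 145 CPM, above the highest p27 high cell. The core histone genes Hist1h2ab (1.7 against 88.7 CPM) and Hist1h2ae (2.07 against 76.7 CPM) were also lower, but copies of histone genes are nearly identical, and the way shared reads were counted is not known. Histone genes with a single copy gave lower values too: H2afx, the variant marked at DNA breaks, had 45.2 against 409 CPM, H2afz 40.02 against 120.1 CPM, H2afv 194 against 549 CPM, and H1f0, the linker histone of resting cells, 117 against 335 CPM. Replication-dependent histone transcripts mostly lack a poly(A) tail, which amplification of this kind needs, so their levels are not those of whole transcripts.

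Other ranked or abundant lower genes came from several functions. Pclaf (ENSMUSG00000040204, chromosome 9, 65890237 to 65903266), a partner of the replication clamp PCNA, had 2.26 CPM (1.67 to 2.98) against 119.9 CPM (117 to 123). Ankle1, an endonuclease of blood-forming cells, had 6.72 against 190.4 CPM with reads in 9 of 84 p27 high and 51 of 95 p27 negative cells. Cip2a, an inhibitor of the phosphatase PP2A, had 2.12 against 60.02 CPM with reads in 1 of 84 p27 high and 44 of 95 p27 negative cells. Mxd3, which competes with Myc for their shared partner Max, had 0.875 against 44.4 CPM, and the other 12 tested genes of the Myc network were within 2-fold. Tcf19, a gene switched on late in G1, had 12.8 against 133 CPM, and BC030867 0.461 against 66.8 CPM. The ranked entries, Gm12387, Gm7856 and Gm6091, are annotated as processed pseudogenes, so their reads may belong to their parent genes. Gp1ba, a platelet adhesion receptor, had 1.57 against 36 CPM, and Cchcr1, a coiled-coil protein, 1.2 against 28.1 CPM.

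Per-cell values differed both in level and in how many cells held reads. Gimap6 and Gstm1 were detected in over 50% of the cells of each class and differed in level. For Gstm1 the shares of cells lay apart as well, as given above. Fcgrt, Ctsf, Ctsh and Mthfd2 were detected in fewer than 50% of the cells of each class and differed in how many cells held them. For these 4 genes the ratio of summed CPM was larger than the ratio of the shares of cells, so levels in the cells that held them also differed: Fcgrt was in 35.7% against 13.7% of cells, with 117 against 9.5 CPM.

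**Figure D2:**
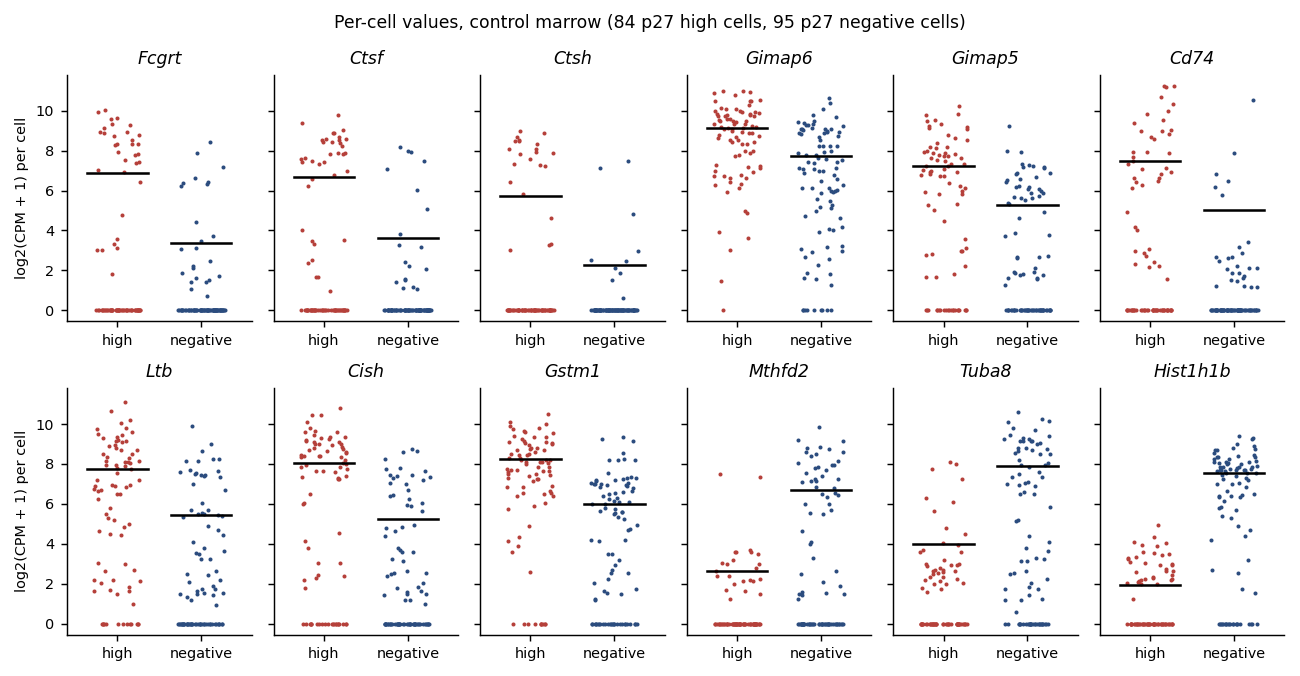
Values per cell as log2(CPM + 1) on the y axis for 12 genes, with 84 p27 high cells in red and 95 p27 negative cells in blue, 1 point a cell, spread sideways for view. Black lines are the level of the summed class. Mthfd2, Tuba8 and Hist1h1b are lower in p27 high cells and the other 9 genes higher.

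The letters CCAAT, bound by the factor NF-Y and frequent in cell cycle promoters, were also searched in the lower genes. They stood in 45.1% of the 712 lower genes with an entry, in 40.2% of those outside the mitosis and replication lists, and in 36.7% of genes within 2-fold. TTTGAA, the letters of the cell cycle homology region of mitotic promoters, stood in 15.9%, 12.9% and 10.2% of the same sets and in 16.3% of all promoters. Mitosis genes held them in 67.6% and 32.4% of cases. The E-box CACGTG stood in 7.67% of higher, 7.3% of lower and 9.02% of other genes, and in 6.05% of all promoters. The GC box GGGCGG stood in 57.7%, 61.4% and 61.7%, and in 32.9% of all promoters, which include many genes not expressed here. A match describes the letters and is not a site of binding. Promoters of lower genes are shown for these letters, from base 106 to base 7 before the start, with CCAAT or ATTGG and TTTGAA or TTCAAA in capitals:
Mthfd2, chr6:83317611-83317710, minus strand: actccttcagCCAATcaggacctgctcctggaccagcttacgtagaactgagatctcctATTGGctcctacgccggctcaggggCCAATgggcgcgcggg
Tcf19, chr17:35516831-35516930, minus strand: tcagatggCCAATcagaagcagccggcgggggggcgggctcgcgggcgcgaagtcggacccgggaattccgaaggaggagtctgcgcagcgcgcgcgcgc
Hmgb3, chrX:71555811-71555910, plus strand: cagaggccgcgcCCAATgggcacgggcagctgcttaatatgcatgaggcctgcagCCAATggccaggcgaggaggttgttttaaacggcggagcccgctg
Mki67, chr7:135716386-135716485, minus strand: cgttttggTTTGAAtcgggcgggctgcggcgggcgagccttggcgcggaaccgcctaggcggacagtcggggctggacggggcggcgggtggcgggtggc
Mthfd2 holds CCAAT 96, 47 and 22 bases before its start, Tcf19 98 bases before and Hmgb3, a chromatin protein at 23.3 against 61.2 CPM, 94 and 51 bases before. Mki67, a gene of the mitosis list shown for comparison, holds TTTGAA in this window.

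Tubulins and their regulators were divided by gene. Of 27 tested, 7 were at least 2-fold lower in p27 high cells (25.9%, beside 8.41% of all genes). The 3 higher ones made up 11.1%, near the 13% of all genes. Tubb5 (ENSMUSG00000001525, chromosome 17, 35833921 to 35838306), the most abundant, had 1138 CPM (1124 to 1152) against 3205 CPM (3188 to 3222) with reads in 83 of 84 p27 high and 94 of 95 p27 negative cells, a median of 920.2 CPM per p27 high and 2882 CPM per p27 negative cell. Tuba8 (ENSMUSG00000030137, chromosome 6, 121210696 to 121226854), an alpha tubulin of restricted tissues, differed more, with 15.1 CPM (13.5 to 16.8) against 234 CPM (229.9 to 239) and reads in 16 of 84 p27 high and 49 of 95 p27 negative cells. Also lower were Tuba1b (194 against 535 CPM), Tuba1c (29.7 against 109.9 CPM) and Tubb4b (304 against 752 CPM), and some of their reads may be shared with near-identical copies. Clip3, a microtubule-linker protein of the trans-Golgi network, stood opposite with 46.2 against 3.66 CPM, 73.7% of its p27 negative reads coming from 1 cell. Nuclear pore and import genes had 5 of 31 at least 2-fold lower (16.1%, beside 8.41% of all genes), 0 higher and a median of -0.65. They were the pore scaffold genes Nup93 (47.9 against 119 CPM), Nup107 (42.5 against 105 CPM), Nup133 (53.4 against 109.9 CPM) and Nup155 (22.8 against 55.2 CPM) and the importin gene Kpna2 (1.7 against 17.7 CPM).

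Polycomb and Trithorax genes, which keep or lift gene silencing through histone marks, had 5 of 43 at least 2-fold higher (11.6%) and 3 lower (6.98%), near the 13% and 8.41% of all genes. Ezh2 (ENSMUSG00000029687, chromosome 6, 47530139 to 47595341), the methyltransferase of Polycomb complex PRC2, had 73.9 against 209.8 CPM, and the accessory gene Phf19 5.8 against 17.6 CPM. Another accessory gene of that complex, Phf1, had 29.9 against 5.82 CPM with reads in 21 of 84 p27 high and 8 of 95 p27 negative cells. Cbx7, a reader of the same mark in stem cells, had 59.9 against 15.2 CPM, yet the shares of cells were close, 21 of 84 p27 high and 21 of 95 p27 negative cells. Kdm6b, an enzyme that removes the mark, had 33.6 against 12.6 CPM. Ezh2 had a log2 fold of -0.45 in cells numbered 1 to 32 and -2.03 in the others.

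Of 58 tested haematopoietic transcription factors 9 were at least 2-fold higher (15.5%, beside 13% of all genes) and 2 lower (3.45%, beside 8.41%). Hlf, a factor of long-term stem cells, had 273 against 93.2 CPM with reads in 70 of 84 p27 high and 53 of 95 p27 negative cells, and Zbtb20, a repressor, 291 against 111 CPM with reads in 70 of 84 p27 high and 61 of 95 p27 negative cells. The list's other higher genes included Nfia (51.9 against 14 CPM), Prdm16 (49.9 against 18.1 CPM) and Satb1 (29.1 against 6.37 CPM), and Ikzf4 had 16 against 0.938 CPM with reads in 10.7% and 3.16% of cells. The lower pair was Gata1 (24.8 against 182 CPM) and Klf1 (8.24 against 51.7 CPM), factors of red cell and platelet formation. Klf1 had a log2 fold of 0.20 in cells numbered 1 to 32 and -5.48 in the others. The erythroid list as a whole had 9 of 14 at least 2-fold lower (64.3%, beside 8.41% of all genes) and 0 higher. Its median was -0.28 and -2.24 in the same ranges, so the size of the erythroid difference rested on cells numbered 33 to 96. Aqp1, a water channel of red cells, had 16.4 against 74.2 CPM and Tfrc, the transferrin receptor, 5.57 against 23.2 CPM. Clock genes went both ways, with 5 of 17 at least 2-fold higher (29.4%, beside 13% of all genes) and 3 lower (17.6%, beside 8.41%). The higher ones included Clock (19 against 4.23 CPM), Rora (54.7 against 16 CPM) and Cry1 (46.8 against 17.6 CPM). The lower ones were Per2 (3.18 against 13.1 CPM), Nr1d2 (9.21 against 24.7 CPM) and Cry2 (16.9 against 37 CPM). The labels do not give the time of day of marrow collection.

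Lists of the constitutive machinery held few genes past 2-fold, where 13% of all genes were higher and 8.41% lower. Several of the lists leaned to the lower side as a whole. Of 35 proteasome, 24 heat shock, 14 chaperonin and prefoldin, 22 aminoacyl-tRNA synthetase and 72 nuclear respiratory chain genes tested, 0 were past 2-fold in either direction, with medians of -0.27, 0.03, -0.29, -0.19 and -0.35. Of 66 ribosome biogenesis genes 2 were higher and 0 lower, and the spliceosome list had 1 of 62 lower, Snrpd3 at 53.5 against 111 CPM, with a median of -0.42. Log2 folds lay below 0 for 29 of 35 proteasome, 12 of 14 chaperonin and prefoldin, 63 of 72 respiratory chain and 52 of 62 spliceosome genes. They did so for 12 of 24 heat shock and 13 of 22 tRNA synthetase genes, beside 5155 of 11056 over all genes. Relative to spike-in reads all these values shift down together by the amounts given above.

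**Figure D3:**
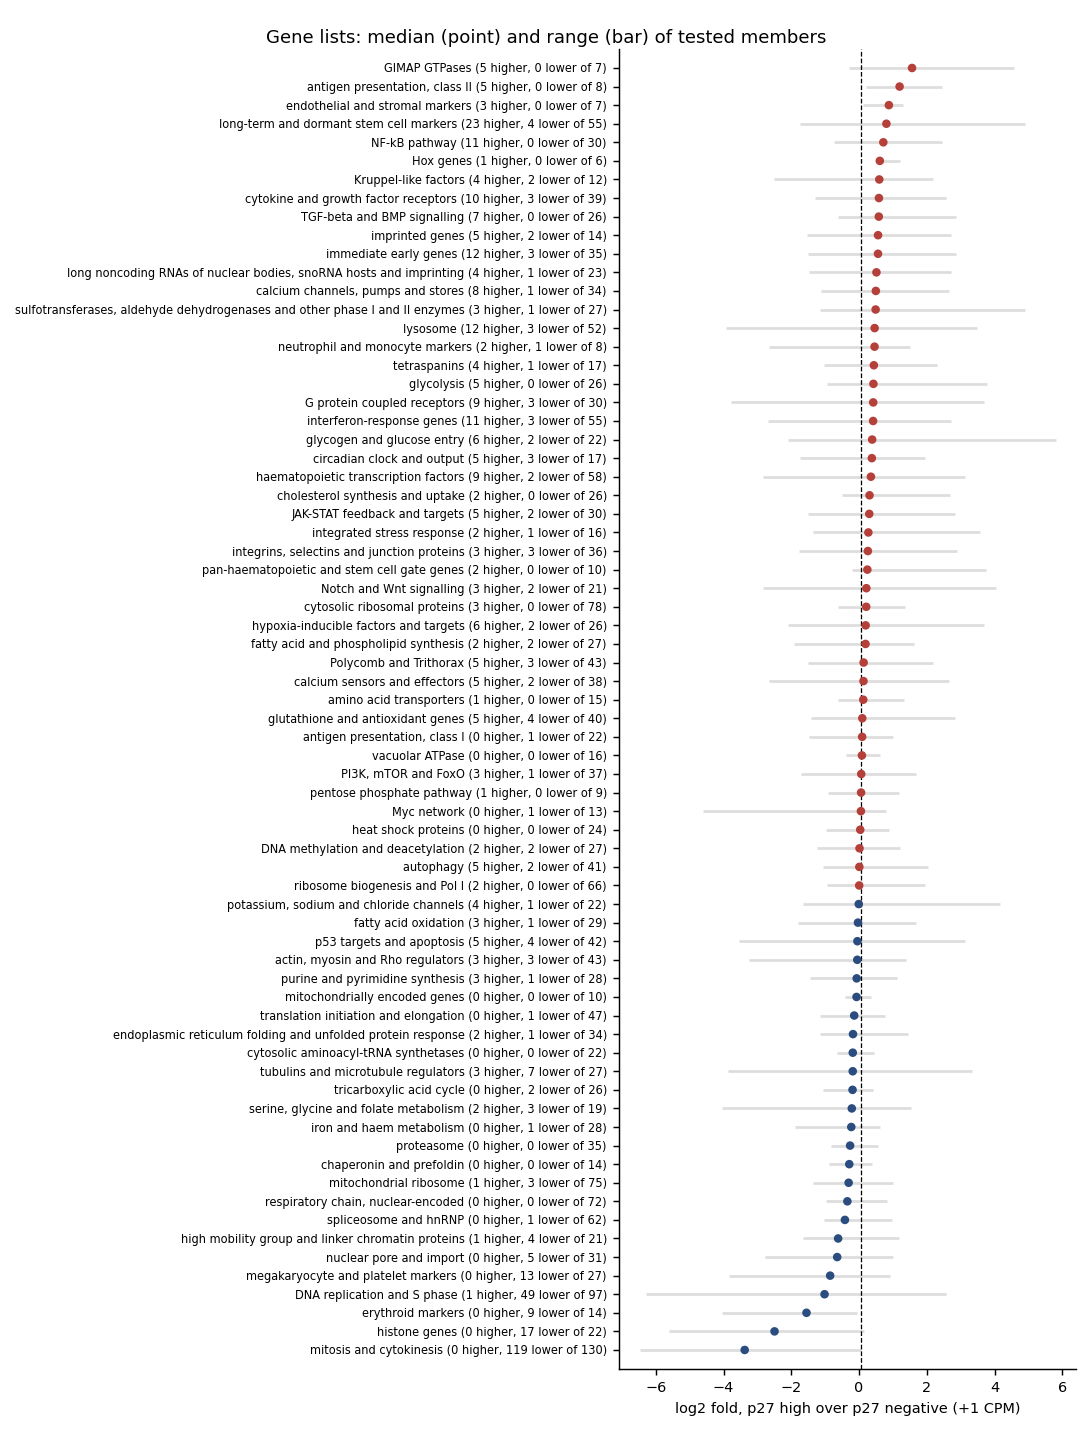
Median log2 fold of p27 high over p27 negative control cells (points) and the range from the lowest to the highest tested member (bars) for each list with at least 5 tested genes. The dashed line is the median of all genes, 0.06, and labels give how many members were at least 2-fold higher or lower.

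The genes past 2-fold were also compared in annotation, length, level and position. By annotation 92.5% of higher, 92.7% of lower and 90.8% of other genes were protein coding. The longest annotated transcript had a median of 3478, 3398 and 3169 bases, and the median level over both classes was 21.2, 24.1 and 49 CPM, so genes past 2-fold were lower expressed than the rest. Level is not independent of the choice, since it was the filter for testing and folds of low genes vary more. Annotated antisense transcripts had 17 higher and 8 lower of 62 tested, and processed pseudogenes 9 higher and 27 lower of 578. Over all genes 13% were higher and 8.41% lower. A higher gene had another higher gene as its nearest tested neighbour on either side in 27.5% of cases, against 24.4% of all tested genes, and a lower gene a lower neighbour in 20.7% against 15.9%. Chromosome 13, which carries the large Hist1 cluster, had 46 lower genes of 410 tested (11.2%), beside 8.41% of all genes. Chromosome 14 had 38 of 361 (10.5%), and the part of the cluster in the share of chromosome 13 was not tested. Several ranked higher genes not yet named had known roles in other settings: Osgin1, a growth inhibitor induced by oxidative stress, had 82.4 against 11.4 CPM, with 55.1% of the p27 negative reads from 1 cell. Hivep3, a zinc finger protein, had 48 against 6.88 CPM, and Snn, a small membrane protein, 17.9 against 1.59 CPM. Padi4, which converts arginine to citrulline in histones, had 126 against 22 CPM, Serpinb9, an inhibitor of granzyme B, 133 against 25.4 CPM, and Plppr3 128 against 32.4 CPM. Nek6, a kinase known from mitosis, stood on the higher side at 149 against 21.5 CPM with reads in 27 of 84 p27 high and 16 of 95 p27 negative cells. Gm45837 overlaps Arap1 on the same strand, so its 97.8 against 5.41 CPM are uncertain.

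The p27 low class shares no cells with either class, and its levels lay between them for 981 of the 1439 higher and 529 of the 930 lower genes. Among the 8687 genes within 2-fold they lay between for 2763. Genes picked for a wide gap between the classes leave more room for a level between them, so these counts do not place the p27 low class. For Ctsf the p27 low class had 64.5 CPM between 103 and 11.3, for Gimap5 53.3 between 147 and 37.5, and for Mthfd2 28 between 5.3 and 103. It exceeded the p27 high class for 203 higher genes, such as Gimap8 at 30.1 CPM, and lay under the p27 negative class for 254. Of the 930 lower genes it was under the p27 high level for 250 and above the p27 negative level for 151. Of the ranked lower genes, Gp1ba had 37.5 and Cchcr1 29.1 CPM in the p27 low class, at the p27 negative level, whereas Mxd3 and BC030867 had 0.361 and 0.361 CPM, under the p27 high level.

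The same contrast in marrow after LPS used other cells. Of 10387 genes tested in both, 1184 were at least 2-fold higher in control and 1131 after LPS, and 448 were so in both, 37.8% of the control and 39.6% of the LPS list. The shared lower genes numbered 340, 40.8% of 834 and 47.4% of 717. Outside the mitosis and replication lists the lower overlap was 193 genes, 28.8% and 34.5%. A total of 35 genes higher in control were at least 2-fold lower after LPS, and 43 lower genes were at least 2-fold higher. Over all genes tested after LPS 12% were at least 2-fold higher and 7.1% lower. GIMAP genes had a median of 1.48 after LPS, with Gimap6 at 396 against 141 CPM. Class II genes had a median of 1.73 after LPS, with Cd74 at 858 against 135 CPM. Ctsf, with 59.1 against 11.3 CPM, and Padi4, with 101 against 11.3 CPM, had like values. Cish, Socs1 and Il6st did not: Cish had 278 against 247 CPM, Socs1 35.7 against 49.2 and Il6st 13.4 against 22.1, so their log2 folds went from 2.82, 1.59 and 1.22 in control to 0.17, -0.45 and -0.69. The p27 negative cells had 36.6 CPM of Cish in control and 247 after LPS, beside 264 and 278 in p27 high cells. Rsad2, an interferon target, had 2571 against 2243 CPM. At a 4-fold limit 66 higher genes and 149 lower genes were shared, where 2.96% and 2.18% of all genes tested after LPS were called. Whether the class difference itself differs between treatments was not tested, since each group is 1 sample.

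**Figure D4:**
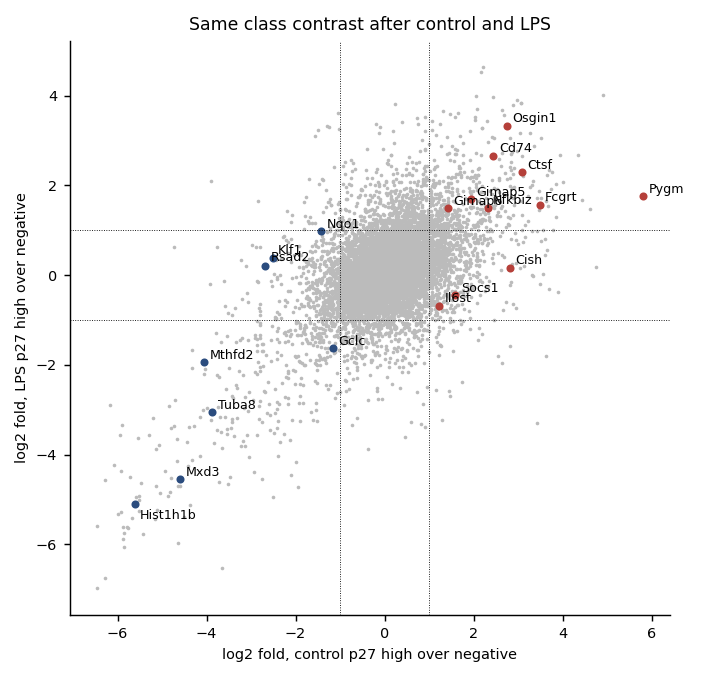
Log2 fold of p27 high over p27 negative cells in control marrow (x axis) and after LPS (y axis) for genes tested in both, 1 grey point a gene, with named genes in red (higher in control) or blue (lower in control). Dotted lines mark 2-fold: Hist1h1b and Mxd3 lie far down on both axes, and Cish lies to the right at a log2 fold of 0.17 after LPS.

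**Figure D5:**
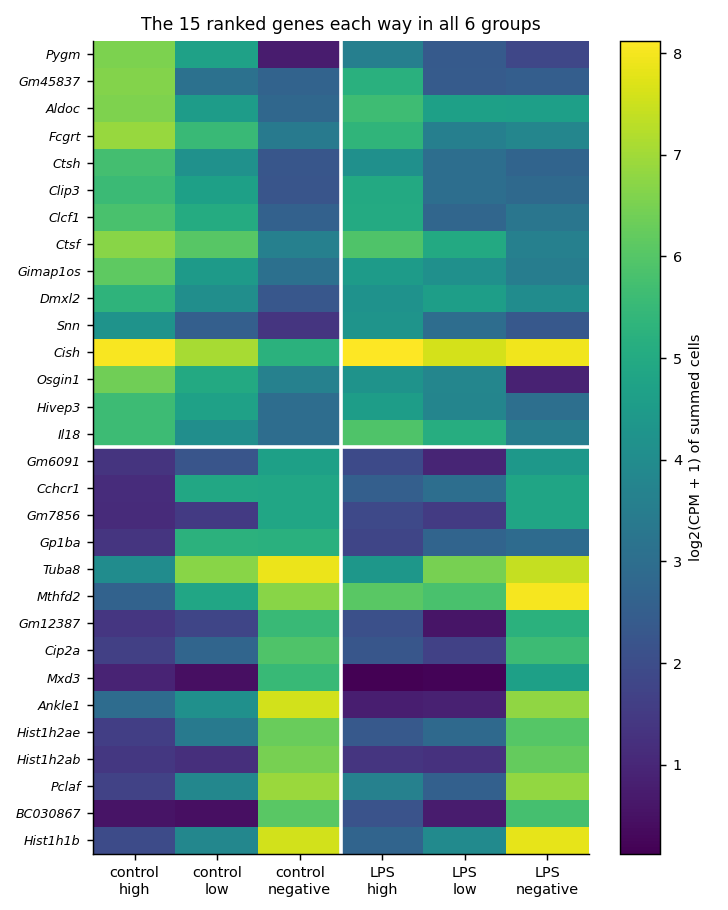
Levels of the 15 ranked genes on each side, as log2(CPM + 1) of the summed cells by colour, in the 6 groups of the series in columns. The white lines part control from LPS groups and higher from lower genes, and Hist1h1b has 2.86, 13.1 and 188 CPM in the control p27 high, low and negative columns.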

How the data were processed

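RNA of single sorted cells was amplified by the Picelli protocol and made into Nextera XT libraries, per the labels' protocols. The authors deposited raw counts of reads per gene, 46175 entries per cell, of which 46078 are genes, 92 spike-ins and 5 summary entries that name no gene. Alignment to mm10 with GSNAP and counting with HTSeq 0.6.0 are per the submitters' processing notes. Which annotation and strand setting were used is not given in the sources used here, nor how shared reads were treated. In the cells of this contrast genes took 32.3% of reads, spike-ins 2.88%, reads without alignment 54.6%, reads outside features 6.53% and ambiguous reads 3.75%.

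Cells with at least 50000 gene reads and 1000 genes were kept, and none was removed as a doublet. Symbols and coordinates came from GENCODE M21, which named 45229 genes. Counts were summed per class and scaled to CPM, and genes with a mean of at least 5 CPM were compared by log2 fold after adding 1 CPM, called past 2-fold. Shares of cells were taken after thinning each cell to 50000 reads. With 1 sample a group no count model was fitted. edgeR 4.0.16 gave TMM factors for an alternative only. The calculation of the fold was tried on simulated cells with known folds, all drawn from the summed p27 negative profile. Those cells held no cell types and no ranges of cell number, so the trial does not bear on which genes were called here.

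Named genes were the 15 ranked each way and the 10 each way with at least 100 CPM outside the lists of mitosis, DNA replication and long-term stem cell markers, up to 4 from each other list, and the gate genes. Ranking used the smallest absolute log2 fold over summed CPM, mean CPM per cell and summed CPM without the top cell, among genes detected in at least 20% of cells of the higher class. Other list members are given as the list's account needed them, after their values were seen. The comparison, its lists and the printed promoters were chosen with earlier results of these data known, and the alternatives by cell number were added after seeing the data. Promoters were matched by symbol, using the first entry of a gene, for 124 of 151 named genes. Some list members are not reported here.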

Additional observations from a re-analysis of the deposited data

How the results depend on the processing

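No paired analysis was possible because the replicate numbers in the labels are cell numbers and the result comes from no test. The main counts were 1439 higher and 930 lower genes. They became 810 and 2108 relative to spike-in reads, 2316 and 2027 in cells numbered 1 to 32 alone, where 23 and 32 cells remained, 2360 and 1714 among 22883 genes with any read, and 751 and 527 among 8066 genes with a mean of at least 20 CPM. The cause of the shift by cell number was not tested. TMM factors, totals without mitochondrially encoded genes, the mean of CPM per cell, sums without the top cell, stricter or looser cell filters, 0.1 or 5 CPM added and cells numbered 33 to 96 kept both counts within 1.5 times. At a 4-fold limit 66 genes were higher and 149 lower in both treatments, against 448 and 340 at 2-fold. In cells numbered 1 to 32 the log2 fold turned to 0.94 for Epor, 0.20 for Klf1, -0.20 for Hoxa7, 0.10 for Copg2, -0.97 for Ccl4 and -0.14 for H2-Eb1. In cells numbered 33 to 96 it turned to -0.12 for Acvr1 and 1.42 for Ifit1, which was also 0.87 without the top cells. No other gene given here with a fold past 2 changed sign under these alternatives. The share of cells lay in the direction of the fold for 143 of 144 named genes past 2-fold, and for 137 to 140 at 200000 reads, without thinning or with at least 5 reads. The choice of genes favoured this, since all but the gate genes had to be detected in at least 20% of cells of the higher class. These counts are therefore no independent check of the folds. Genes near 5 CPM rest on few cells, and 95% counting intervals do not cover the spread between animals.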

Other observations

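Both classes held cells with Xist and cells with Y-linked genes. With at least 5 reads required, 43 of 84 p27 high cells had reads of Xist but not of Ddx3y, Eif2s3y, Kdm5d or Uty, 31 had reads of those Y-linked genes only, 0 of both and 10 of neither. Among 95 p27 negative cells the numbers were 60, 26, 2 and 7. The labels give no sex or animal, and cells of these kinds were not compared.

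Enzymes and channels that no account above holds also differed by single genes. Kcnh2, a potassium channel, had 22.4 against 0.313 CPM with reads in 10.7% and 1.05% of cells, and Ano6, which moves lipids across the membrane, had 78.1 against 30.04 CPM. Trib3, a pseudokinase of the integrated stress response, had 44.9 against 2.89 CPM, while Ppp1r15b, which ends that response, had 32.1 against 83.4 CPM. Hif3a, of the hypoxia-inducible factors, had 48.5 against 2.84 CPM, and Arnt, their shared partner, 36 against 13.8 CPM. Mvd, an enzyme of cholesterol synthesis, had 14.1 against 1.37 CPM. Il4, a cytokine of basophils and T cells, had 12.3 against 2.6 CPM with reads in 17 of 84 p27 high and 6 of 95 p27 negative cells, and Prtn3, a granule protease of myeloid cells, 276 against 96.2 CPM with reads in 75 of 84 p27 high and 62 of 95 p27 negative cells. Nkg7, a granule protein of cytotoxic lymphocytes, had 55.9 against 169.9 CPM with reads in 25 of 84 p27 high and 60 of 95 p27 negative cells. The T cell gene Cd3e had 0.0461 against 0.024 CPM and the B cell gene Ighm 0.0461 against 8.61 CPM, and the part of lymphoid cells was not tested. Sirt1, a deacetylase, had 16.9 against 38.2 CPM. Adgrl1, a latrophilin receptor, had 4.65 against 15.3 CPM, and Vcl, the adhesion protein vinculin, 14 against 46.5 CPM.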
